A study of Mus musculus with 4 samples.

Results

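The genes described here are 41 chaperones, heat shock factors and components of the unfolded protein response (UPR), given as a list of symbols and looked up in 2 tables of gene counts from embryonic mouse cortex. All 41 were found among the 19968 genes that both tables list. They were divided by compartment and role into 16 genes of the cytosolic heat shock system, 3 mitochondrial chaperones, 14 chaperones and folding enzymes of the endoplasmic reticulum (ER) and 8 genes of UPR signalling. A filter on low counts left 40 of the 41 for testing, and the gene it left out was Trib3. With at least 1000 counts over the libraries, 33 of the 41 were well measured.

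The cytosolic heat shock response is run by heat shock factors, chiefly HSF1, which chaperones of the HSP70 and HSP90 families hold inactive until unfolded proteins occupy those chaperones. The UPR is the corresponding response of the ER. Its sensors IRE1, PERK and ATF6 sit in the ER membrane, and through the transcription factors XBP1, ATF4 and ATF6 they raise ER chaperones, degradation factors and, under prolonged stress, the pro-apoptotic factor CHOP. In the embryonic cortex the PERK and ATF4 branch is known to be active in progenitors and to be tuned down as neurogenesis proceeds.

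RNA came from cerebral cortex of C57BL/6 embryos at embryonic day 15 and was sequenced in bulk. The Prdm16cKO group carries a conditional knockout of Prdm16, a zinc-finger transcriptional regulator of radial glia, and the Prdm16fl/fl group carries the floxed alleles. The labels name neither the Cre line nor the deleted exon, so the cells in which deletion took place are not known here. In all, 2 tables were deposited, each with a library of the knockout group (called cKO 1 and cKO 2) beside the same floxed library. The labels list 2 samples per group. Column names show the group of a library but not which labelled sample it was, and the other floxed sample was not analysed here. The title of 1 sample of each group holds the word Blood with no explanation, and the design text speaks of triplicates. No source states that the cKO libraries are from different embryos, and a p-value here then reflects only how far these libraries vary, perhaps for technical reasons.

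Counts summed to 19514882 for cKO 1 and 18579178 for cKO 2, against 17839662 for floxed. At these depths 3 counts, the limit that a count of 0 allows, equal 0.154, 0.161 and 0.168 CPM (counts per 1000000 counts of the library). Prdm16 had 34.6 CPM in cKO 1, 24.1 CPM in cKO 2 and 30.2 CPM in floxed, with ratios to floxed of 1.15 (exact 95% interval 1.02 to 1.29) and 0.798 (0.702 to 0.906). The library labelled cKO 1 thus goes against its label for the whole-gene count, though a deleted exon need not lower that count, and each direction below is that of a library so labelled. Markers of the labelled tissue were present, with 10 neuronal markers summing to 7750, 7829 and 7759 CPM and 10 radial glial markers to 2415, 2372 and 1759 CPM in cKO 1, cKO 2 and floxed. The cKO 2 library stood apart from the others in markers of several non-neural cell types: 12 meningeal and fibroblast markers summed to 1337 CPM in cKO 1, 89.8 CPM in cKO 2 and 856 CPM in floxed. The same order held for 10 endothelial markers (363, 175 and 304 CPM), 8 pericyte and smooth muscle markers (203, 93.1 and 169 CPM) and 8 microglial and macrophage markers (142, 45.4 and 103 CPM), while 8 choroid plexus markers summed to 1109, 335 and 1117 CPM. The 8 erythroid markers differed less, with sums of 1605, 1294 and 1758 CPM in cKO 1, cKO 2 and floxed, and 4 of the 8 were above floxed in cKO 2. Among all markers only Tagln, a smooth muscle gene, had no count in a library (counts of 3 and 0 in cKO 1 and cKO 2, against 6 in floxed). In bulk tissue, fewer cells of a type and less RNA per cell cannot be told apart, and the part of these shifts in the results below was not tested.

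The responses are known to act through short elements in the promoters of these genes, and the matches are shown first. RefSeq promoter windows (GRCm38.p6, 250 bases before to 50 after the start site) were matched for 32 of the 41 genes. The ER stress response element of textbooks, ERSE, consists of CCAAT and CCACG with 9 bases of any kind between them, and is bound by the general factor NF-Y at its left end and by ATF6 or XBP1 at its right end. Searched on both strands, it was found in 7 of 11 ER chaperone promoters and in none of the 12 cytosolic, 2 mitochondrial and 7 UPR signalling promoters with a window. Over all RefSeq windows, 37 of 27025 genes (0.137%) hold it. The sites are shown because their fixed letters, in capitals, are what these promoters share, while the spacer between them differs in every site shown. Each is written 5′ to 3′ in the orientation of the element.
Hspa5, chr2:34772025-34772043, plus strand: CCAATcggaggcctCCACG
Hsp90b1, chr10:86705533-86705551, plus strand: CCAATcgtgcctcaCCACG
Hsp90b1, chr10:86705638-86705656, minus strand: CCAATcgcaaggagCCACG
Calr, chr8:84847075-84847093, plus strand: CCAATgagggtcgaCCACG
Canx, chr11:50325800-50325818, minus strand: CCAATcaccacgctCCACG
Pdia6, chr12:17266491-17266509, plus strand: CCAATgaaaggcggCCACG
Creld2, chr15:88819520-88819538, minus strand: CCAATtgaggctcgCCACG
Dnajc3, chr14:118937827-118937845, plus strand: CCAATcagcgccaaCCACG

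The promoter of Hspa5, the gene of the central ER chaperone BiP, is shown as the textbook example over the 250 bases that end just before the RefSeq start site, with the matched element in capitals.
Hspa5 promoter, chr2:34771840-34772089, plus strand: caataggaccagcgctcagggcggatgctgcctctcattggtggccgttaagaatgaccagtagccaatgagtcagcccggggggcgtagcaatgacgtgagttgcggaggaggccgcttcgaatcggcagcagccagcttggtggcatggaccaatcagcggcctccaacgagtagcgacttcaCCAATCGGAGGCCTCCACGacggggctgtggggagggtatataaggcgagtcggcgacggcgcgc
The element lies 65 to 47 bases before the start site of Hspa5. Further CCAAT pentamers that lack a matching right end stand in the same window in lower case. The shorter element ERSE-II, which is ATTGG and CCACG with 1 base between them, was found on either strand in 12 of 27025 genes (0.0444%) and among the members only in Herpud1, which encodes a membrane protein of ER-associated degradation.
Herpud1, chr8:94386377-94386387, plus strand: ATTGGgCCACG

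Heat shock elements are runs of alternating GAA and TTC units that bind HSF1. With at least 3 perfect units in a row, each 2 bases from the next, on either strand, they were found in 179 of 27025 genes (0.662%). Among the 32 members with a window they were found in 3, namely 1 of 12 cytosolic and 2 of 2 mitochondrial genes. Hspa8, Hsp90aa1, Hsp90ab1 and Hsf1 had no window and were not searched. Hspd1 and Hspe1, which encode the mitochondrial chaperonin HSP60 and its lid HSP10, are transcribed away from each other, and the same 18 bases, 4 alternating units, lie in both windows. The 250 bases upstream of Hspe1 are shown because they hold the element the pair shares, in capitals.
Hspe1 promoter, chr1:55087898-55088147, plus strand: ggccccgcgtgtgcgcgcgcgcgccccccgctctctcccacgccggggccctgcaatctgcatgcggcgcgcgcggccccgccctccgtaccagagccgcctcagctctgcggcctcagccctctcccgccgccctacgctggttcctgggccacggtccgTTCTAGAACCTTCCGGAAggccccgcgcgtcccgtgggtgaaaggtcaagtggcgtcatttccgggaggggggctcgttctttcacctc
Hsph1, which encodes the HSP110 protein HSP105, has its match just inside the transcribed part, 37 to 49 bases after a start site.
Hsph1, chr5:149636288-149636300, minus strand: TTCtgGAAagTTC
The UPR element TGACGTGG (193 genes, 0.714%) and the C/EBP-ATF element TGATGNAAT (293 genes, 1.08%) matched no member window. A match is a description of letters, and a missing match says only that these letters are not in the window.

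Of all counts, the 41 genes together took 0.996% and 1.02% in cKO 1 and cKO 2, against 0.962% in floxed. Per kilobase of exon, Hsp90ab1, the constitutive cytosolic HSP90, was the most abundant with 972, 930.3 and 955 CPM per kb in cKO 1, cKO 2 and floxed, and Hspa8, the constitutive HSP70 (HSC70), came next with 541, 583 and 510.3 CPM per kb. These genes alone made up 52.7%, 51.7% and 52.6% of the members' counts. Calr, the ER lectin chaperone calreticulin, followed with 219, 249.9 and 222 CPM per kb. At the other end stood the stress-inducible Hspa1a and Hspa1b and the UPR target Trib3, all under 0.5 CPM per kb in each library. The levels therefore spanned more than 3 orders of magnitude within the set.

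**Figure D1:**
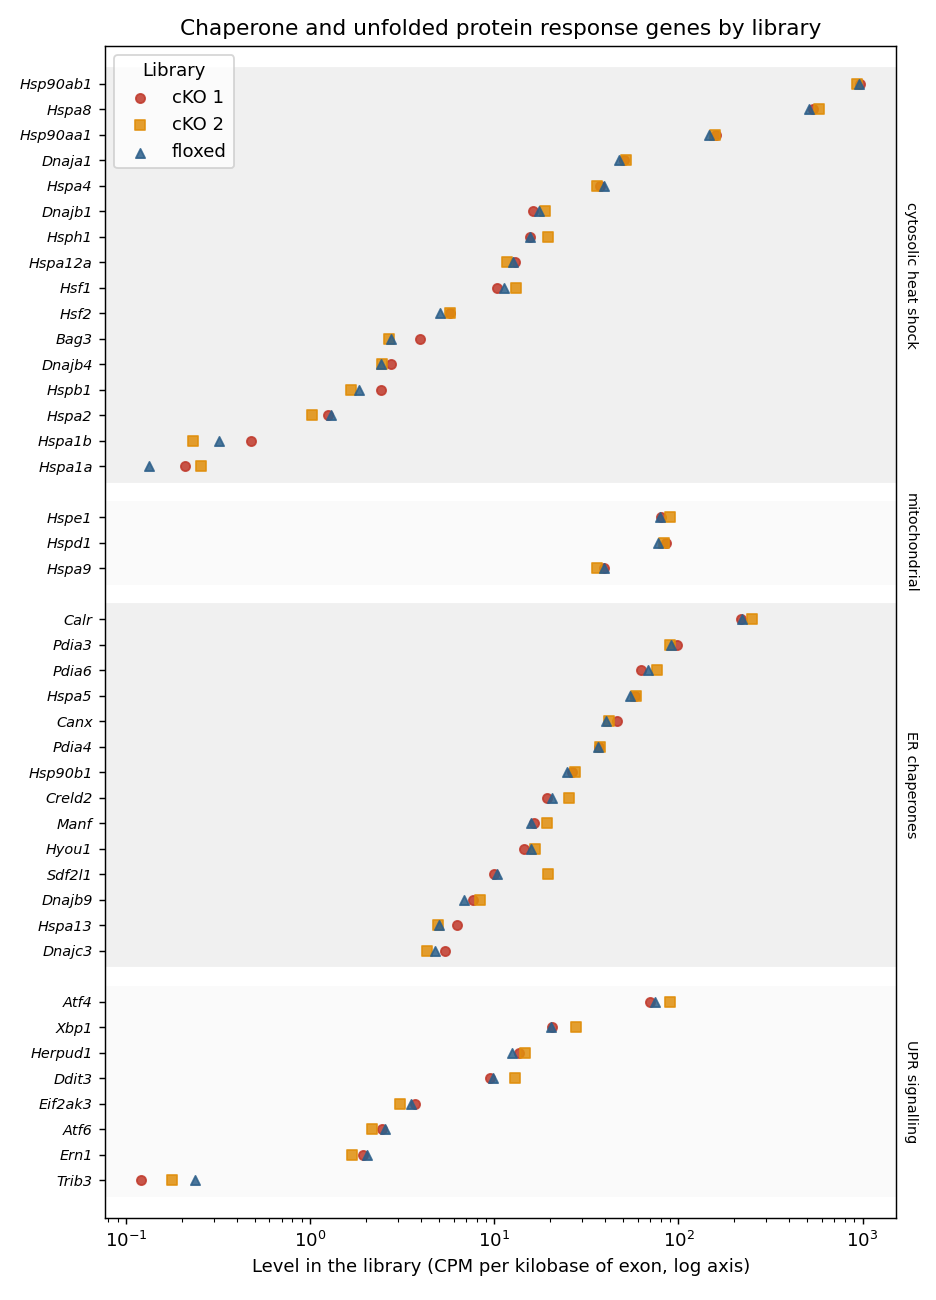
Level of each of the 41 genes in each library, in CPM per kilobase of merged exon on a log axis, grouped by role. Symbols show cKO 1, cKO 2 and the floxed library, which nearly coincide for most genes. Hsp90ab1 and Hspa8 stand highest, Hspa1a, Hspa1b and Trib3 lowest, and the cKO 2 symbol of Sdf2l1 lies apart from the other libraries.

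No member was called different between the cKO libraries and the floxed library. In edgeR's quasi-likelihood test on library totals with Benjamini-Hochberg adjustment, 0 of 40 passed an adjusted p of 0.05, against 0.006% of all 16658 genes tested (1 gene), with an adjusted p of 1 after rounding for each of the 40. In the same test, 0 of 40 had an unadjusted p under 0.05, against 1.53% of all genes. DESeq2 called 0 of 40 (0.03% of all genes) and limma-voom 0 of 40 (0.006%). In the authors' deposited tables, 14 of the 41 members had an adjusted p under 0.05 in cKO 1 against floxed and 24 in cKO 2 against floxed. These p-values compare single libraries. The share of all genes under the same rule was not taken, so these counts cannot be read as a result about the members. None of the 41 is marked significant in the authors' deposited tables, where every marked gene has an absolute log2 fold of 1 or more and the members' largest were 0.98 and 0.94. The fitted log2 folds of the well-measured members had standard errors (SE) of at least 0.13, and the fit assumes that the lone floxed library varies like the cKO libraries.

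The libraries were then set against floxed separately, with exact 95% intervals of the count ratio that cover counting error only. In cKO 1, 12 of 40 members were higher than in floxed beyond counting error, against 17.9% of all genes tested, and 4 of 40 were lower (Hsf1, Pdia6, Hyou1 and Atf4), against 16.1%. In cKO 2, 20 of 40 were higher, against 16.1% of all genes, and 6 of 40 lower (Hspa4, Hspa9, Hspa12a, Hsp90ab1, Atf6 and Ern1), against 24.6%. Since abundant genes pass such an interval more easily, the same counts were taken over genes with at least 1000 counts. There, cKO 1 had 11 of 33 members higher (22.1% of genes) and 4 of 33 lower (23.9%), and cKO 2 had 19 of 33 higher (23.8%) and 5 of 33 lower (26.2%). With libraries scaled by TMM in place of totals, 23 of the 40 tested members were higher in cKO 2, against 21.1% of all genes, and 2 of 40 lower, against 19.8%.

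A level at least 25% above floxed was reached by 1 of 33 well-measured members in cKO 1 (Hspa13), against 4.18% of such genes, and by 3 of 33 in cKO 2 (Hsph1, Xbp1 and Ddit3), against 4.15%. With TMM scaling, which adds Creld2, Manf and Dnajb9, it was 6 of 33 in cKO 2, against 6.04% of such genes. No well-measured member was at or below 0.8, where 2.64% of such genes lay in cKO 1 and 6.42% in cKO 2. Both cKO libraries were above floxed for 17 of 40 members, against 27.6% of all genes, and both below for 4 of 40 (Hspa2, Hspa4, Atf6 and Ern1), against 31.9%. For the other 19, floxed lay between the cKO libraries. Over the 40 tested members, the median log2 folds were 0.051 (cKO 1) and 0.11 (cKO 2), beside medians of 0.013 and -0.044 over all genes tested. Over all genes with at least 1000 counts, the medians were -0.0056 and -0.0065.

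**Figure D2:**
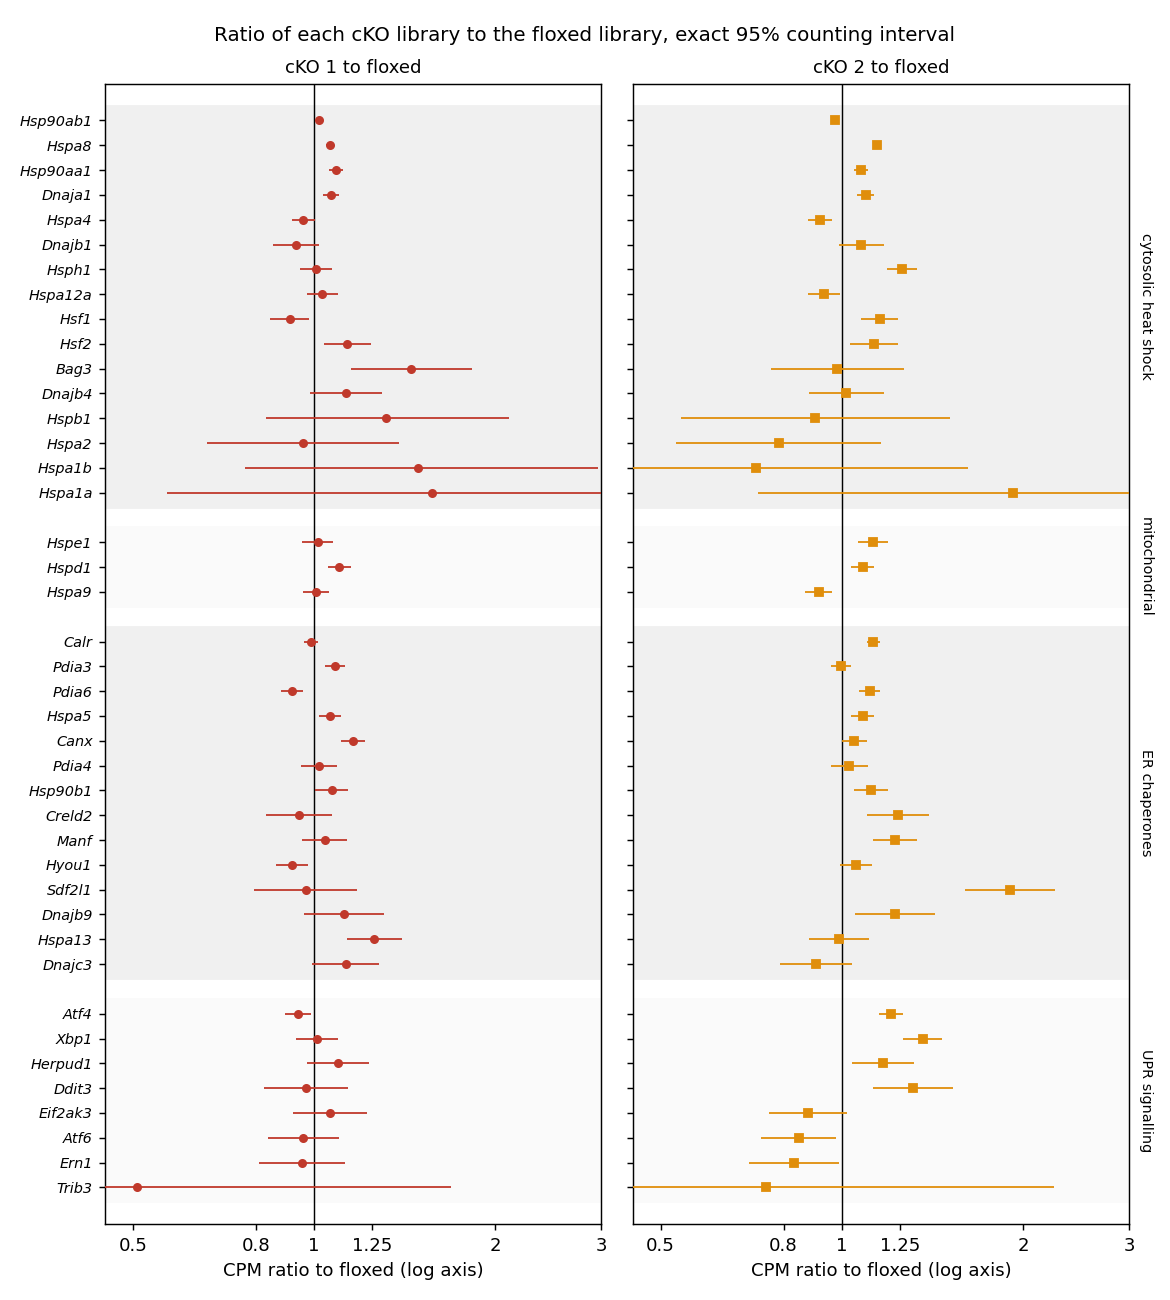
Ratio of CPM in cKO 1 (left) and cKO 2 (right) to floxed for the 41 genes, on a log axis, with exact 95% intervals for counting error. The vertical line marks equal levels. Most ratios lie between 0.8 and the tick at 1.25, Sdf2l1 in cKO 2 lies at 1.90, and intervals of the lowest genes, such as Hspa1a and Trib3, run past the axis.

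The cKO libraries also differed from each other. In cKO 2 against cKO 1, 14 of 40 members were higher beyond counting error, against 17% of all genes, and 10 of 40 were lower, against 27.4%. The difference between the cKO libraries went with properties of the transcripts across the whole tables. Over 8543 genes with at least 1000 counts, the log2 ratio of cKO 2 to cKO 1 had a Spearman correlation of 0.512 with GC content and -0.365 with exon length. The same correlations over the 40 members were 0.166 and -0.270. For cKO 1 against floxed the correlation with GC content was -0.492 over all such genes and -0.243 over the members, and for cKO 2 against floxed the correlation with exon length was -0.369 and -0.311. These are descriptions across genes that share the same 3 libraries, and their part in the members' differences was not tested.

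Among the cytosolic chaperones, the abundant constitutive genes stayed within a ratio of 1.14 to floxed. Hspa8 (ENSMUSG00000015656, GRCm38 chromosome 9, 40800984 to 40810087, plus strand) had 2329 CPM in cKO 1 and 2508 CPM in cKO 2, against 2195 CPM in floxed, ratios of 1.06 (1.05 to 1.08) and 1.14 (1.13 to 1.16). Both cKO libraries were above floxed, and a log2 fold of 0.14 was fitted (SE 0.15). Reads of Hspa8 are uncertain, since 39.4% of the 50-base stretches of its transcripts also occur in other genes, mostly the processed copy Gm15459. Hsp90aa1, the inducible cytosolic HSP90, had 627 and 621 CPM in cKO 1 and cKO 2, against 577 CPM in floxed, ratios of 1.09 (1.06 to 1.12) and 1.08 (1.05 to 1.11). A log2 fold of 0.11 was fitted (SE 0.13), and 47.5% of its 50-base stretches are shared with other genes. Hsp90ab1 (ENSMUSG00000023944, GRCm38 chromosome 17, 45567775 to 45573271, minus strand) had 2916 and 2790.1 CPM in cKO 1 and cKO 2, against 2864 CPM in floxed, ratios of 1.02 (1.01 to 1.03) and 0.974 (0.962 to 0.986). Its cKO libraries lay on opposite sides of floxed, and its fitted log2 fold of -0.0058 (SE 0.15) turned to 0.012 with TMM scaling.

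The inducible HSP70 genes, the usual reporters of a heat shock response, were near the bottom of the range. Counts of Hspa1a came to 12 in cKO 1 and 14 in cKO 2, against 7 in floxed (0.615, 0.754 and 0.392 CPM). Those of Hspa1b came to 26 and 12, against 16 in floxed (1.33, 0.646 and 0.897 CPM). Their coding sequences are nearly the same, with 66.3% and 62.3% of the 50-base stretches shared with other genes, mostly with each other, so the authors' counting could split or drop their reads, and a gene on the other strand (Gm20481) overlaps 19.0% of the exon bases of Hspa1a. Taken as a pair, they gave 38 counts in cKO 1 and 26 in cKO 2, against 23 in floxed, ratios of 1.51 (0.877 to 2.66) and 1.09 (0.595 to 1.99). A difference from floxed was not detectable at this depth. Hspb1, the small heat shock protein HSP27, had 2.51, 1.72 and 1.91 CPM in cKO 1, cKO 2 and floxed. Both of its ratio intervals included 1, and 50.1% of its 50-base stretches occur in other genes, mostly Hsp25-ps1. Hspa2, an HSP70 best known from the testis, had 3.28, 2.69 and 3.42 CPM in cKO 1, cKO 2 and floxed.

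Hsf1, the master regulator of the heat shock response, lay on opposite sides of floxed in the cKO libraries. Its level was 73.2 CPM in cKO 1 and 93.0 CPM in cKO 2, against 80.4 CPM in floxed, ratios of 0.911 (0.846 to 0.981) and 1.16 (1.08 to 1.24), and a log2 fold of 0.048 was fitted (SE 0.18). Hsf2, a heat shock factor with a developmental role in the mouse cortex, had the cKO libraries closest to each other of all 41 genes, and both were above floxed. It had 55.3 and 55.1 CPM in cKO 1 and cKO 2, against 48.8 CPM in floxed, ratios of 1.13 (1.04 to 1.24) and 1.13 (1.03 to 1.24), with a fitted log2 fold of 0.18 (SE 0.14).

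The co-chaperones of HSP70 varied without a common direction. Dnaja1, a J-domain protein that delivers clients to HSP70, had 439 and 450.2 CPM in cKO 1 and cKO 2, against 411 CPM in floxed. Its ratios were 1.07 (1.03 to 1.10) and 1.09 (1.06 to 1.13), and 20.6% of its 50-base stretches occur in other genes. Hsph1, which releases nucleotide from HSP70, had 114 CPM in cKO 1, 142 CPM in cKO 2 and 113 CPM in floxed. It is singled out after its values were seen, as the largest ratio to floxed among the well-measured cytosolic members: 1.26 (1.19 to 1.33) in cKO 2, where cKO 1 had 1.01 (0.949 to 1.07). Hspa4, a relative of Hsph1 with the same activity, went the other way, with 208 and 199.5 CPM in cKO 1 and cKO 2, against 217 CPM in floxed, and a ratio of 0.919 (0.878 to 0.961) in cKO 2. Bag3, which couples HSP70 to selective autophagy, was higher in cKO 1 alone, with 10.1, 6.89 and 7.01 CPM in cKO 1, cKO 2 and floxed and a cKO 1 ratio of 1.45 (1.15 to 1.83). The remaining cytosolic members, Dnajb1, Dnajb4 and the distant HSP70 relative Hspa12a, had ratios between 0.932 and 1.13. By counts, 6 of the 16 cytosolic members were higher and 1 lower in cKO 1 beyond counting error, and 6 higher and 3 lower in cKO 2. Over all genes, 17.9% were higher and 16.1% lower in cKO 1, and 16.1% higher and 24.6% lower in cKO 2. Their median log2 folds were 0.089 and 0.064. Of the 11 with at least 1000 counts, 5 were higher and 1 lower in cKO 1, and 6 higher and 3 lower in cKO 2. Among all genes with that many counts, 22.1% were higher and 23.9% lower in cKO 1, and 23.8% higher and 26.2% lower in cKO 2. The median log2 folds of these 11 members were 0.044 in cKO 1 and 0.11 in cKO 2, the reverse order of that over all 16.

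The mitochondrial chaperones share the folding of imported proteins. Hspd1 had 225 and 221 CPM in cKO 1 and cKO 2, against 204 CPM in floxed, ratios of 1.10 (1.05 to 1.15) and 1.08 (1.04 to 1.13) and a fitted log2 fold of 0.13 (SE 0.13). Hspe1, its partner across the promoter printed above, had 119 and 132 CPM, against 117 CPM in floxed. Only the cKO 2 ratio of Hspe1, 1.13 (1.06 to 1.19), left out 1. Exons of the pair overlap on opposite strands and the kit does not mark strand, which touches 4.24% of the exon bases of Hspd1 and 7.60% of those of Hspe1, and 42.1% and 22.8% of their 50-base stretches occur in other genes. Hspa9, the mitochondrial HSP70 mortalin, had 170.4 and 155 CPM in cKO 1 and cKO 2, against 169 CPM in floxed, with a ratio of 0.916 (0.870 to 0.964) in cKO 2.

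In the ER, Hspa5 and Hsp90b1 were slightly above floxed in both cKO libraries. Hspa5 (ENSMUSG00000026864, GRCm38 chromosome 2, 34771970 to 34777547, plus strand) had 245 and 250.1 CPM in cKO 1 and cKO 2, against 231 CPM in floxed, ratios of 1.06 (1.02 to 1.11) and 1.08 (1.04 to 1.13), and a log2 fold of 0.10 was fitted (SE 0.13). Hsp90b1, the ER HSP90 known as GRP94, had 106 and 111 CPM in cKO 1 and cKO 2, against 99.6 CPM in floxed, ratios of 1.07 (1.003 to 1.14) and 1.12 (1.05 to 1.19), with a fitted log2 fold of 0.13 (SE 0.14). The lower bound in cKO 1 lies just above 1 on library totals and just below it with TMM scaling. With TMM scaling the intervals of Hspa5 were 1.01 to 1.10 in cKO 1 and 1.07 to 1.16 in cKO 2. These bounds cover counting error only, and the activity of the UPR was not tested.

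The lectin chaperones and disulfide isomerases, which fold glycoproteins together, differed from gene to gene in which cKO library was higher. Calr had 631 CPM in cKO 1 and 719.8 CPM in cKO 2, against 639 CPM in floxed, ratios of 0.988 (0.963 to 1.01) and 1.13 (1.10 to 1.16). Canx, its membrane-bound relative calnexin, had 219 and 198 CPM, against 188 CPM in floxed, and was the further from floxed in cKO 1, at 1.16 (1.11 to 1.21). Pdia3, the isomerase recruited by both lectins, had 308 and 283 CPM in cKO 1 and cKO 2, against 284 CPM in floxed, also higher in cKO 1 alone. Pdia6, which also acts on the sensor IRE1, was on opposite sides of floxed, with 235 CPM in cKO 1 and 285 CPM in cKO 2, against 256 CPM in floxed and ratios of 0.920 (0.883 to 0.958) and 1.11 (1.07 to 1.16). Pdia4 was near floxed in both (89.3, 90.1 and 87.6 CPM in cKO 1, cKO 2 and floxed). Hyou1, the nucleotide exchange factor GRP170, had 105 and 121 CPM, against 115 CPM in floxed, lower in cKO 1 with a ratio of 0.918 (0.863 to 0.977).

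Sdf2l1, Creld2, Manf and Dnajb9, known to be induced by ER stress, are the 4 ER members with ratios to floxed above 1.2 in cKO 2, and are named after their values were seen. Sdf2l1 (ENSMUSG00000022769, GRCm38 chromosome 16, 17130138 to 17132383, minus strand), a partner of BiP, had 11.1 CPM in cKO 1, 21.7 CPM in cKO 2 and 11.4 CPM in floxed. The cKO 2 library stood apart from the others, with a ratio of 1.90 (1.60 to 2.26) to floxed and 1.96 (1.66 to 2.33) to cKO 1, where the cKO 1 ratio to floxed was 0.968 (0.796 to 1.18). This was the furthest from floxed of any member with at least 100 counts, and a log2 fold of 0.52 was fitted (SE 0.40). Creld2, a secreted ER-resident protein, had 26.5 CPM in cKO 1 and 34.8 CPM in cKO 2, against 28.1 CPM in floxed, with a cKO 2 ratio of 1.24 (1.10 to 1.40). Manf, a secreted ER protein with neurotrophic activity, had 57.6 and 67.8 CPM, against 55.4 CPM in floxed, with a cKO 2 ratio of 1.22 (1.12 to 1.33). Dnajb9, the J-domain protein ERdj4, had 19.4 and 21.2 CPM, against 17.3 CPM in floxed, with ratios of 1.12 (0.962 to 1.31) and 1.22 (1.05 to 1.43), and its cKO libraries did not differ from each other beyond counting error.

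Hspa13 and Dnajc3 had their highest level in cKO 1. Hspa13, an HSP70-like ATPase, had 42.8 CPM in cKO 1, 33.6 CPM in cKO 2 and 34.0 CPM in floxed, a cKO 1 ratio of 1.26 (1.13 to 1.40). Dnajc3, which restrains PERK and assists BiP, had 27.6, 22.1 and 24.4 CPM in cKO 1, cKO 2 and floxed. Over all 14 ER members, 5 were higher and 2 lower in cKO 1 beyond counting error, and 8 higher and 0 lower in cKO 2. Their median log2 folds were 0.072 and 0.13. Over all genes, 17.9% were higher and 16.1% lower in cKO 1, and 16.1% higher and 24.6% lower in cKO 2. Of the 13 ER members with at least 1000 counts, 5 were higher and 2 lower in cKO 1, and 7 higher and 0 lower in cKO 2. The median log2 folds of these 13 were 0.086 and 0.11. Among all genes with that many counts, 22.1% were higher and 23.9% lower in cKO 1, and 23.8% higher and 26.2% lower in cKO 2. Of the 7 with the ER stress element printed above, Calr, Pdia6 and Creld2 were below floxed in cKO 1, with ratios of 0.988, 0.920 and 0.943, and Dnajc3 was below it in cKO 2, with 0.905. Among these ratios, only the interval of Pdia6 left out 1. The other ratios of the 7 genes to floxed lay above 1. The intervals of Canx in cKO 2 and of Dnajc3 in cKO 1 (0.992 to 1.28) include 1 all the same. With TMM scaling the cKO 2 interval of Canx was 1.03 to 1.13. Over all genes, 8727 of 16658 were above floxed in cKO 1 and 7210 in cKO 2. Sdf2l1, the furthest from floxed, has a window without that element.

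**Figure D3:**
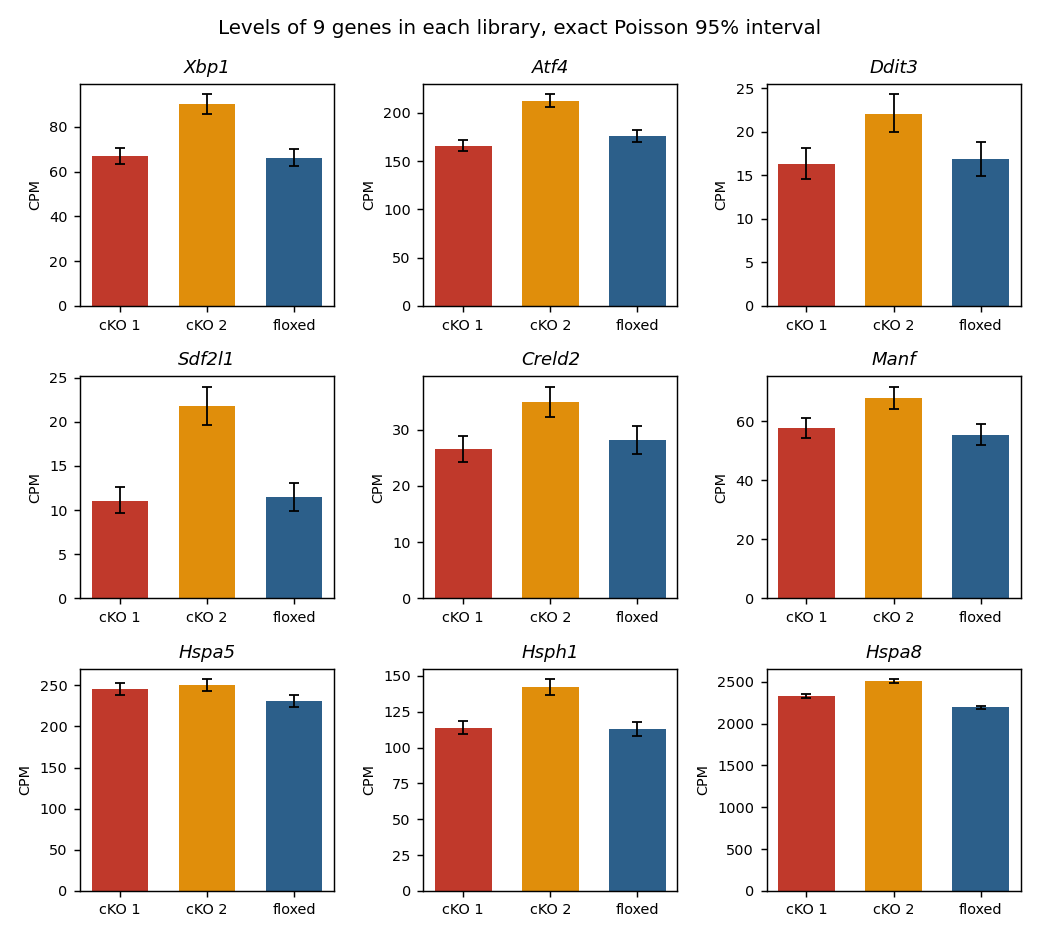
CPM of 9 genes in cKO 1, cKO 2 and floxed, as bars from 0 with exact Poisson 95% intervals for counting error, 1 library per bar. Xbp1, Atf4, Ddit3, Sdf2l1, Creld2, Manf and Hsph1 stand higher in cKO 2 than in either of the other libraries, whereas Hspa5 and Hspa8 are above floxed in both cKO libraries by small amounts.

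Of the UPR transcription factors, Xbp1, Atf4 and Ddit3 were higher in cKO 2 beyond counting error, and none of them was in cKO 1. Atf6, a sensor that is also a transcription factor, was lower in cKO 2 on library totals and is described with the sensors. Xbp1 (ENSMUSG00000020484, GRCm38 chromosome 11, 5520659 to 5525893, plus strand), whose mRNA is spliced by IRE1 to make the active factor, had 67.0 CPM in cKO 1 and 90.2 CPM in cKO 2, against 66.3 CPM in floxed, ratios of 1.01 (0.934 to 1.10) and 1.36 (1.26 to 1.47). Its cKO 1 library and floxed agree within counting error, and a log2 fold of 0.25 was fitted (SE 0.20). Atf4, the factor translated when PERK phosphorylates eIF2α, had 166 CPM in cKO 1 and 212 CPM in cKO 2, against 176 CPM in floxed, ratios of 0.942 (0.896 to 0.989) and 1.21 (1.15 to 1.26), and a fitted log2 fold of 0.10 (SE 0.17). Ddit3, which encodes CHOP, had 16.3 CPM in cKO 1 and 22.1 CPM in cKO 2, against 16.8 CPM in floxed, ratios of 0.969 (0.825 to 1.14) and 1.31 (1.13 to 1.53), and a fitted log2 fold of 0.19 (SE 0.27). Herpud1, a target of both ATF6 and ATF4, had 31.8 and 34.1 CPM, against 29.1 CPM in floxed, with a cKO 2 ratio of 1.17 (1.04 to 1.32).

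The sensors lay below floxed in cKO 2. Atf6 had 22.5 CPM in cKO 1 and 19.9 CPM in cKO 2, against 23.4 CPM in floxed, with a cKO 2 ratio of 0.848 (0.735 to 0.977). Ern1, the gene of IRE1, had 15.8 and 13.8 CPM, against 16.5 CPM in floxed, with a cKO 2 ratio of 0.833 (0.702 to 0.988). Eif2ak3, the gene of PERK, had 22.4 and 18.6 CPM, against 21.1 CPM in floxed, with both ratio intervals including 1. With TMM scaling the cKO 2 intervals of Atf6 and Ern1 also include 1. Merged exons of Atf6, Ern1 and Eif2ak3 hold 9231, 8173 and 6026 bases. Those of Xbp1, Atf4, Ddit3 and Herpud1 hold 3248, 2358, 1713 and 2333, and those of Trib3, also below floxed but on few counts, 2125. The part of exon length in this contrast was not tested. Trib3, a pseudokinase induced by CHOP, was read 5 times in cKO 1 and 7 times in cKO 2, against 9 times in floxed, and was not tested. Over the 8 genes of UPR signalling, 0 were higher and 1 lower in cKO 1 beyond counting error, and 4 higher and 2 lower in cKO 2. Among all genes, the higher and lower shares were 17.9% and 16.1% in cKO 1, beside 16.1% and 24.6% in cKO 2. Of the 6 UPR signalling members with at least 1000 counts, 0 were higher and 1 lower in cKO 1, and 4 higher and 1 lower in cKO 2. Among all genes with that many counts, the shares were 22.1% and 23.9% in cKO 1, beside 23.8% and 26.2% in cKO 2. Gene counts hold neither the splicing of Xbp1, nor the translation of Atf4, nor the cleavage of ATF6, so these readings are of mRNA level only.

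The neighbouring pathways, taken from lists of 111 further genes, gave no call either: 0 passed in edgeR after adjustment, 0 had an unadjusted p under 0.05 (the smallest was 0.073, of Hspa4l), and DESeq2 and limma-voom each called 0. The counts beyond counting error that follow are to be read against the shares over all genes. These were 17.9% higher and 16.1% lower in cKO 1, and 16.1% higher and 24.6% lower in cKO 2. Genes with at least 1000 counts pass more easily, with shares of 22.1% and 23.9% in cKO 1 and 23.8% and 26.2% in cKO 2. The neighbouring lists were not split by counts, so an excess over the shares of all genes may reflect abundance. Of 14 subunits of the cytosolic chaperonin TRiC and of prefoldin, 3 were higher and 1 lower in cKO 1 and 7 higher and 1 lower in cKO 2. Cct4, a TRiC subunit, had 269 and 262 CPM in cKO 1 and cKO 2, against 241 CPM in floxed, and Vbp1, a prefoldin subunit, 119.7 and 108 CPM against 99.7 CPM. Of 20 cytosolic co-chaperones, 5 were higher and 3 lower in cKO 1 and 12 higher and 2 lower in cKO 2. Hspa4l, an HSP110 relative, was above floxed in both, with 35.4 and 33.9 CPM in cKO 1 and cKO 2, against 26.9 CPM in floxed, ratios of 1.32 (1.17 to 1.49) and 1.26 (1.12 to 1.42). Fkbp5, an HSP90 co-chaperone induced by glucocorticoids, was below it in both, with 69.0 and 65.4 CPM, against 79.5 CPM in floxed.

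Of 10 genes of mitochondrial protein quality, 2 were higher and 4 lower in cKO 1, and 2 higher and 3 lower in cKO 2, where the shares over all genes were 16.1% and 24.6%. Trap1, the mitochondrial HSP90, had 58.9 and 57.6 CPM in cKO 1 and cKO 2, against 65.4 CPM in floxed, and the protease gene Yme1l1 had 89.8 and 79.8 CPM, against 74.8 CPM in floxed. Further ER folding and translocation genes (20) split as 5 higher and 2 lower in cKO 1 and 3 higher and 8 lower in cKO 2. The share higher in cKO 2 is near the 16.1% of all genes and below the 23.8% of genes with at least 1000 counts. A difference between this list and the 14 ER members was not tested. Within it, Sec61b, a subunit of the translocon, had 63.6 and 76.7 CPM, against 60.5 CPM in floxed, and Spcs1, a subunit of signal peptidase, 63.8 and 77.5 CPM against 61.2 CPM. The 15 genes of ER-associated degradation had 0 higher and 0 lower in cKO 1 and 2 higher and 3 lower in cKO 2. Among them, Selenos had 33.1 and 36.2 CPM, against 32.2 CPM in floxed, and Erlec1, a lectin of the pathway, 28.0 and 18.5 CPM against 24.9 CPM.

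Of 19 known targets of ATF4 and CHOP, 4 were higher and 5 lower in cKO 1 and 4 higher and 8 lower in cKO 2. Over all genes, too, lower calls outnumbered higher calls in cKO 2 (24.6% and 16.1%). For the targets, the median log2 folds were -0.046 and -0.082. Nupr1, a stress-induced chromatin protein, was counted 80 times in cKO 1 and 3 times in cKO 2, against 53 in floxed, and Slc7a11, the cystine transporter, had 213, 16 and 144 counts. Their ratios to floxed in cKO 2 were 0.0544 (0.0109 to 0.168) and 0.107 (0.0594 to 0.179). These are the sizes by which the meningeal markers differ in the same library. The median log2 folds of those markers were 0.68 and -3.95 for cKO 1 and cKO 2, and the part of meningeal cells was not tested. Creb3l1, an ER-membrane factor of the ATF6 type, and Eif2ak2, an eIF2α kinase that senses viral RNA, had the same order, with 8.30, 2.75 and 7.40 CPM and 3.33, 1.08 and 2.63 CPM in cKO 1, cKO 2 and floxed. Over the 13 genes of UPR and eIF2α control, 3 were higher and 2 lower in cKO 1 and 3 higher and 5 lower in cKO 2, beside the same shares over all genes.

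**Figure D4:**
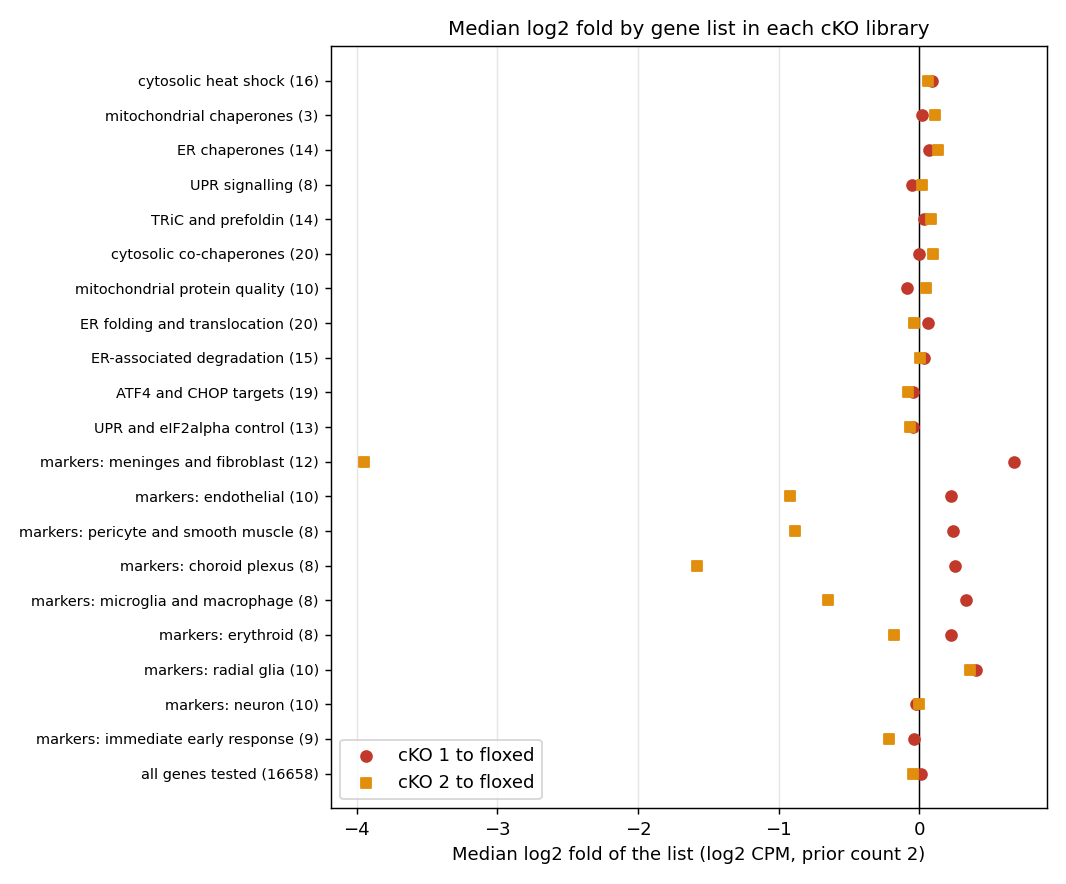
Median log2 fold to floxed of each gene list in cKO 1 (circles) and cKO 2 (squares), on log2 CPM with a prior count of 2; the number of genes is in parentheses. The member groups and neighbouring pathways lie within about 0.13 of 0, while meningeal, vascular and choroid plexus markers lie far below 0 in cKO 2 and above it in cKO 1. Over the 6 UPR signalling members with at least 1000 counts, not drawn, the medians were -0.014 in cKO 1 and 0.25 in cKO 2. Over the 11 cytosolic members with that many counts, also not drawn, they were 0.044 and 0.11.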

How the data were processed

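Both deposited tables hold raw counts, symbols and positions, per the file headers; 35 of the 41 members are listed at their GENCODE M21 (GRCm38) position. The submitters' processing notes name Bowtie2 2.2.3, TopHat2 2.0.12, HTSeq 0.6.0 and mm9. Counting options are not known here, and the TruSeq kit does not mark strand. The deposited normalized values were CPM values, within 0.0169% of counts over library totals. The deposited log2 fold, the deposited fold ratio and the authors' p-values compare 1 library with 1 library, and only counts of adjusted p, largest log2 folds and significance marks are given.

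Genes in both tables were scaled to library totals. Ratios carry exact conditional binomial (Clopper-Pearson) 95% intervals; intervals and limits cover counting error only. edgeR 4.0.16 (R 4.3.3; minimum count 10, 16658 genes, quasi-likelihood, Benjamini-Hochberg) compared 2 cKO libraries with 1 floxed library, with 1 residual degree of freedom and a biological coefficient of variation of 0.224. DESeq2 1.42.0, limma-voom 3.58.1, TMM, no filter, another prior count, 99% intervals and leaving out a library were alternatives. Log2 folds per library used log2 CPM with a prior count of 2. Exon lengths, GC content and shared 50-base stretches came from GENCODE M21, promoters from RefSeq. The fit was run on simulated data with a smaller spread and larger folds than those fitted here. That run does not show whether differences of the members' size could be detected.

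Members and lists were chosen with earlier results of these data known. Named were 14 textbook genes, members whose intervals leave out 1 in both cKO libraries, and the 2 genes of each neighbouring list with the largest fitted fold among those with at least 100 counts; any further member was picked with its values in view. The symbols Vimp and Cebpb of the neighbouring lists and the marker symbol Egr2 were not in both tables. A missing symbol does not show that the gene was not measured under another symbol.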

Additional observations from a re-analysis of the deposited data

How the results depend on the processing

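Of 160 fitted log2 folds of single members under another scaling, filter or tool, 2 changed sign, both of Hsp90ab1, with -0.0058 on totals, 0.012 with TMM and 0.011 with DESeq2. Leaving out cKO 1 turned the sign of 7 of 40 members and leaving out cKO 2 that of 12 of 40, Atf4, Ddit3, Sdf2l1 and Hsf1 among the 12. No member was called by edgeR with totals, TMM or no filter, by DESeq2 or by limma-voom, and none had an unadjusted p under 0.05 in any of them. Of 38 alternatives to counts and medians, 29 stayed and 9 moved. With 99% intervals, members lower beyond counting error came to 2 in cKO 1 (4 at 95%) and 3 in cKO 2 (6 at 95%). TMM, chosen for these counts after seeing the data, left 2 lower in cKO 2 and put 6 well-measured members at least 25% above floxed in that library (3 with totals). The median log2 fold over both cKO libraries was 0.12 with TMM for the cytosolic members (0.11 with totals), and 0.092 for UPR signalling members with at least 100 counts (0.021 for all 8), the low-count Trib3 being left out. Leaving out a cKO library gave medians of 0.064 to 0.089 for cytosolic members, 0.021 to 0.11 for mitochondrial members and 0.072 to 0.13 for ER members. For all 8 UPR signalling members the medians were -0.052 (cKO 1 alone) and 0.021 (cKO 2 alone). Over the 6 of them with at least 1000 counts, they were -0.014 and 0.25. A comparison of 1 library with 1 allows no test. No paired analysis was possible because the groups share fewer than 2 replicate numbers in the columns: the floxed column is numbered 1, as is 1 cKO column, and no floxed column is numbered 2. Depth limits Hspa1a, Hspa1b and Trib3 most.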
